A study of Homo sapiens with 18 samples.

Results

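The genes described here are 37 genes of cholesterol synthesis, fatty acid synthesis and the liver X receptors (LXR), chosen by gene name for their textbook role, with earlier results of these data known. They were followed in LNCaP human prostate cancer cells in which the transcription factor FOXA1, the hypoxia factor HIF1A or both had been lowered. All 37 were found among the 26443 genes with values, and 36 reached 1 RPKM (reads per kilobase of transcript, scaled to the reads of the library) in at least 3 libraries and were tested among 12900 genes. By role, 17 build sterols from mevalonate, 5 control the sterol regulatory factors SREBP or carry sterol, 9 make or modify fatty acids, and 6 are LXR receptors or their targets. The member that was not tested was ABCA1, the cholesterol exporter that answers to LXR.

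LNCaP is an established line that depends on the androgen receptor, whose binding to chromatin FOXA1 prepares. RNA sequencing gave 18 libraries, 3 for each of 6 groups. All were infected with lentivirus for 5 days, and all received 100 µM CoCl2, which stabilises HIF1A protein and stands in for low oxygen, for the last 24 h. The study asked how loss of FOXA1 reprograms transcription with and without HIF1A. The groups are shFOXA1 + KC7F2 (FOXA1 shRNA and the HIF1A inhibitor KC7F2 at 40 µM for 24 h), KC7F2 (control vector pGIPZ with the same inhibitor), shFOXA1 + shHIF1A (both shRNAs), shHIF1A (HIF1A shRNA), shFOXA1 (FOXA1 shRNA) and control (pGIPZ). There was no group without CoCl2, so every comparison lies within the hypoxia mimic. The labels name neither the vehicle of KC7F2 nor the vector that carried the HIF1A shRNA, and do not say whether cells given 1 shRNA took up another vector as well. Triplicates are named without saying that each came from its own culture, so the spread behind every p-value is that between these samples and may be technical.

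Cholesterol is built from acetyl-CoA through mevalonate, squalene and lanosterol. When membrane sterol is low, SCAP escorts the SREBP proteins, made from SREBF1 and SREBF2, out of the endoplasmic reticulum, and they turn on sterol and fatty acid synthesis genes, among them INSIG1, whose product holds SCAP back. The LXR receptors, encoded by NR1H3 and NR1H2, bind oxidised sterols and turn on genes of sterol export and of fatty acid synthesis, SREBF1 included, and in prostate cancer cells androgens raise the SREBP programme.

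Levels are given in RPKM, and changes as differences ± SE of log2(RPKM + 0.5), a scale on which low genes change by less than their RPKM do. The verbs rose and fell are kept for genes with an adjusted p under 0.05, from limma's two-sided test with Benjamini-Hochberg adjustment over the 12900 genes of a comparison. The libraries held about 3280000 to 12020000 reads, as recovered from the spacing of the lowest values, with 6350000 ± 1290000 in shFOXA1 and 11040000 ± 660000 in control (SD, n = 3 each). The KC7F2 replicates 1 and 3 and control replicate 1 carried more signal in short than in long genes (log2 difference 0.44, 0.34 and 0.47, against -0.19 to 0.13 in the other 15). Some of the results that rest on them are given also without these 3 libraries. Where no such value is given, it does not follow that the call held without them. The shRNAs lowered their targets: FOXA1 fell by 1.47 ± 0.16 with shFOXA1, by 0.89 ± 0.16 on shHIF1A and by 1.37 ± 0.16 on KC7F2, and HIF1A fell by 2.49 ± 0.23 with shHIF1A and fell by 4.23 ± 0.23 when shHIF1A was added to shFOXA1. HIF1A mRNA itself rose by 2.00 ± 0.23 with shFOXA1 (adjusted p = 8.36e-06), and KC7F2 gave a value of -0.38 ± 0.23 on control and -0.52 ± 0.23 on shFOXA1 with no call. FOXA1 was higher in shFOXA1 + shHIF1A than in shFOXA1 alone (0.91 ± 0.16, adjusted p = 0.000302), so comparisons that use shFOXA1 + shHIF1A also compare unequal FOXA1 levels. All 10 markers of luminal prostate epithelium reached 1 RPKM in every library, and 12 of 16 markers of leukocytes, endothelium, fibroblasts, adipocytes and hepatocytes stayed under 1 RPKM in all. The 4 fibroblast markers summed to 6.04 to 7.35 RPKM in shHIF1A and 1.83 to 2.62 in control, nearly all of it COL1A1, with COL1A2 and DCN at 0 in all control libraries. On shFOXA1 they summed to 3.73 to 4.68 in shFOXA1 + shHIF1A and 1.83 to 2.41 in shFOXA1. The 3 endothelial markers summed to 2.11 to 2.72 RPKM in shHIF1A, where CDH5 was at 0, and 0.548 to 0.794 in control. The 3 adipocyte markers summed to 0.725 to 2.33 RPKM in shFOXA1 + shHIF1A and 0.219 to 0.657 in shFOXA1, with ADIPOQ at 0 in both. The summed luminal markers were 1443 to 1561 RPKM in shFOXA1 + KC7F2, 1504 to 1639 in KC7F2, 859.1 to 980.6 in shFOXA1 + shHIF1A, 1044 to 1235 in shHIF1A, 1427 to 1577 in shFOXA1 and 1709 to 2205 in control. Every library of every other group, shFOXA1 included, was thus below every control library. The part of these in the members' changes was not tested. In bulk RNA, fewer cells of a type and less RNA per cell cannot be told apart.

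KC7F2 raised one set of members in both FOXA1 backgrounds, while the HIF1A shRNA moved members in both directions. KC7F2 raised 12 of the 36 tested members on control and lowered 1, while 2.04% of all genes were called (1.05% higher, 0.992% lower). On shFOXA1 it raised 12 and lowered none, against 4.08% of all genes called (1.71% higher, 2.37% lower). These comparisons share no library, and 9 members rose in both. The median change of the members with KC7F2 was 0.40 on control, where that of all genes was 0.068, and 0.34 on shFOXA1, where that of all genes was -0.0093. With shHIF1A 11 members rose and 6 fell, in a comparison that called 42% of all genes (25.9% higher, 16.1% lower), so on control the share of members called was near the background. On shFOXA1 it raised 13 and lowered 8, against 37.5% (24% higher, 13.5% lower). With shFOXA1, 2 members rose and 7 fell against 24.1% of all genes (9.52% higher, 14.6% lower). The split of calls over all genes moved with the scaling: median-ratio scaling gave 100 higher and 194 lower for KC7F2 on control, in place of 135 and 128, and 2260 higher and 2383 lower for shHIF1A on shFOXA1, in place of 3096 and 1745, with the median of all genes in the second at -0.0068 in place of 0.0996. The members then stood at 12 higher and 1 lower for KC7F2 on control and 11 higher and 9 lower for shHIF1A on shFOXA1. Without the 3 libraries richer in short genes KC7F2 raised 6 members on control and lowered none, and a fit of KC7F2 and control alone called 2, INSIG1 and SREBF1, both higher.

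**Figure D1:**
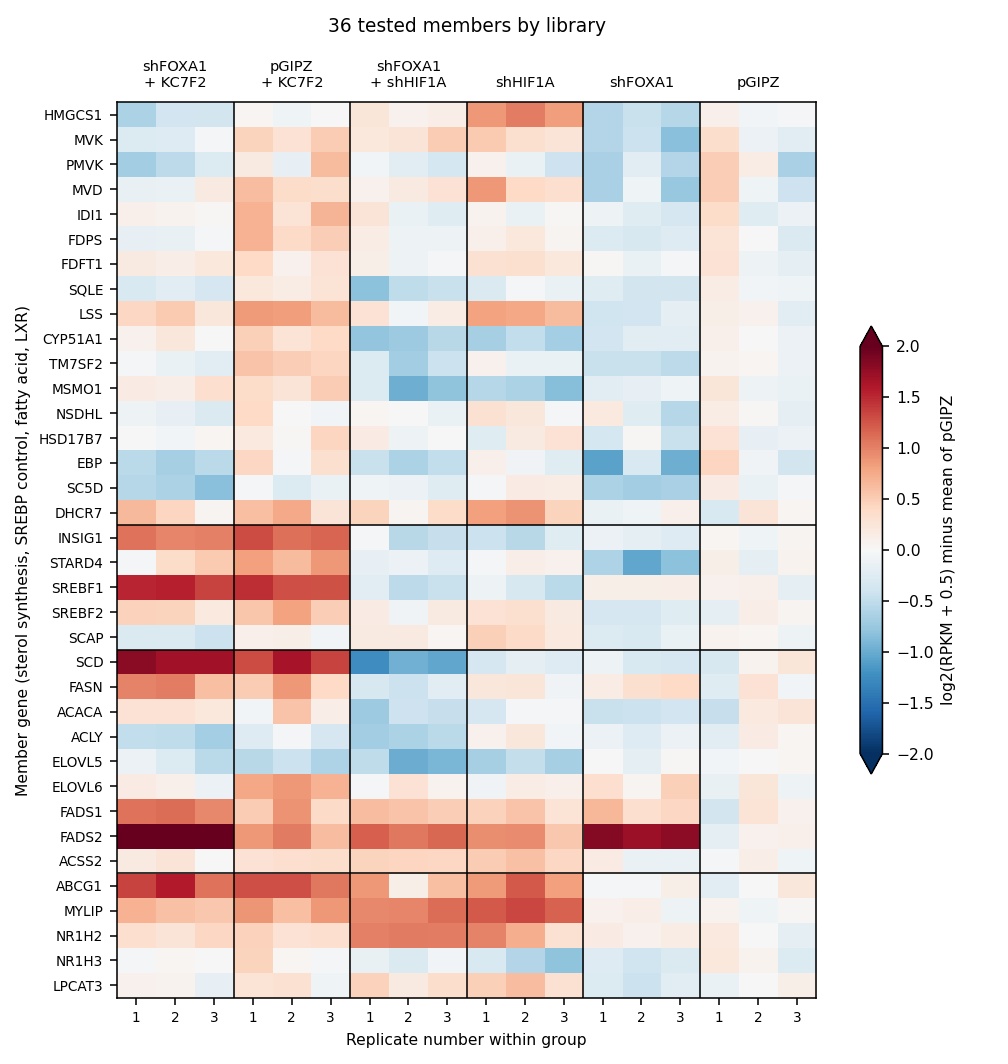
Each row is 1 of the 36 tested members, in 4 blocks by role, and each column 1 library. Colour gives log2(RPKM + 0.5) minus the mean of the 3 control (pGIPZ) libraries, cut at -2 and 2. SREBF1, INSIG1 and SCD are red in the 6 columns with KC7F2 and not in the others, FADS2 is darkest in the columns with the FOXA1 shRNA but without the HIF1A shRNA, and the sterol synthesis block is mostly blue in shFOXA1.

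Of the 5 genes of SREBP control, KC7F2 raised 4 on control and the same 4 on shFOXA1, with list medians of 0.78 and 1.11. Beside this and the other counts by role with KC7F2, 1.05% of all genes rose on control and 1.71% on shFOXA1. SREBF1, which encodes the SREBP that favours fatty acid synthesis genes, measured 148, 152 and 131 RPKM in shFOXA1 + KC7F2, against 55.8, 55.8 and 56.3 in shFOXA1. It measured 144, 126 and 124 RPKM in KC7F2, against 54.1, 55.2 and 44.9 in control. The lowest library with KC7F2 lay far above the highest without it. The rise was 1.35 ± 0.12 on shFOXA1 (adjusted p = 5.41e-06) and 1.35 ± 0.12 on control (adjusted p = 1.28e-05), or 1.33 without the 3 libraries richer in short genes (adjusted p = 0.00453).

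INSIG1, the anchor that retains SCAP when sterol is plentiful and itself an SREBP target, measured 28.7, 26.4 and 27.1 RPKM in shFOXA1 + KC7F2, against 12.2, 11.6 and 10.98 in shFOXA1. In KC7F2 it stood at 33.5, 28.9 and 30.4, against 13.6, 12.4 and 13.8 in control. The groups did not overlap in either pair, and INSIG1 rose by 1.20 ± 0.12 on shFOXA1 and by 1.19 ± 0.12 on control (adjusted p = 1.502e-05 and 2.93e-05). Without the 3 libraries the value on control was 1.12 (adjusted p = 0.0198).

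STARD4, a soluble carrier that moves cholesterol between membranes, is the lowest of the tested members in this list. It measured 2.15, 3.03 and 3.40 RPKM in shFOXA1 + KC7F2, against 1.28, 0.823 and 1.04 in shFOXA1, and rose by 1.11 ± 0.15 (adjusted p = 0.000361). Between KC7F2, at 4.32, 3.74 and 4.46, and control, at 2.45, 1.90 and 2.35, the rise was 0.78 ± 0.15 (adjusted p = 0.0109), with no overlap. That call was lost without KC7F2 1 (adjusted p = 0.0581), KC7F2 3 (0.0614) or control 2 (0.0644), and without the 3 libraries (0.525).

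SREBF2, which encodes the SREBP that favours sterol genes, measured 42.2, 42.0 and 35.2 RPKM in shFOXA1 + KC7F2, against 24.2, 24.2 and 25.7 in shFOXA1, and 45.1, 54.1 and 43.5 in KC7F2, against 26.8, 33.8 and 31.8 in control. Again no values overlapped within a pair. The rises were smaller than those of SREBF1, at 0.67 ± 0.11 and 0.62 ± 0.11 (adjusted p = 0.00179 and 0.00559). SCAP, the escort of the SREBP proteins, was the member of the list with no call, at -0.098 ± 0.093 on shFOXA1 and 0.053 ± 0.093 on control (adjusted p = 0.692 and 0.858).

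**Figure D2:**
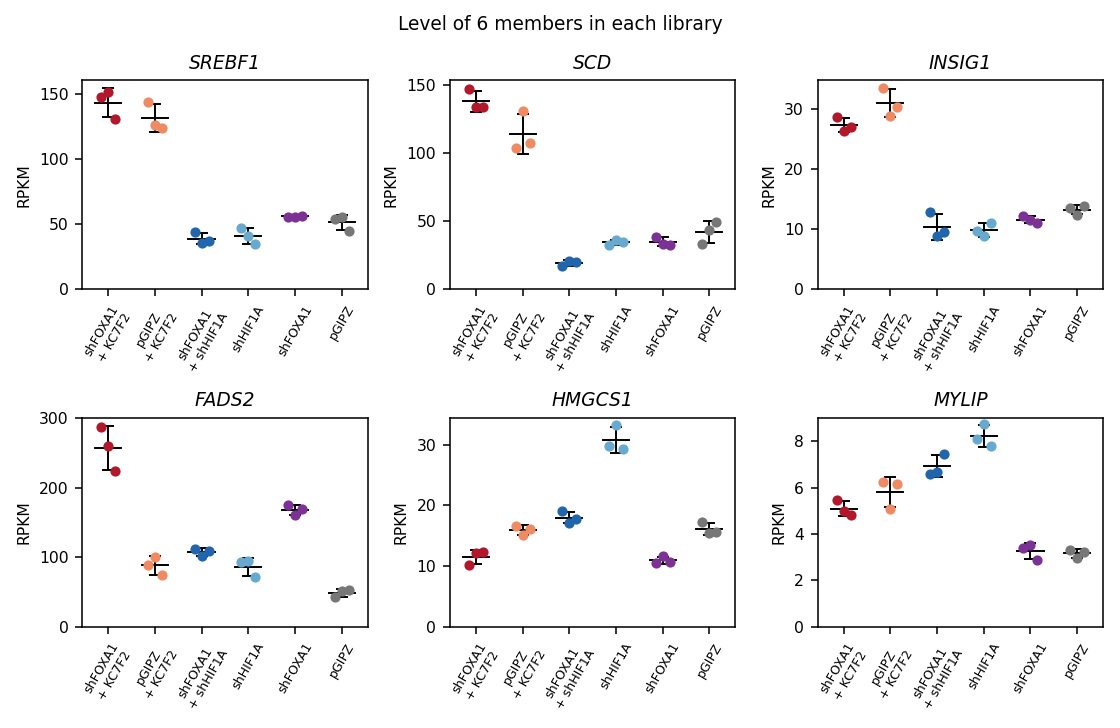
RPKM of 6 members in each library, with 1 point per library and the mean and SD of each group of 3. SREBF1, SCD and INSIG1 are high in both groups with KC7F2, FADS2 in shFOXA1 + KC7F2 and shFOXA1, HMGCS1 in shHIF1A, and MYLIP in all 4 groups with a HIF1A intervention.

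Among the fatty acid genes, KC7F2 raised 3 of 9 on control and lowered 1, and raised 4 of 9 on shFOXA1. SCD, the desaturase that makes oleate, had the largest rise with KC7F2 of any member. It measured 147, 133 and 134 RPKM in shFOXA1 + KC7F2, against 38.7, 33.4 and 32.7 in shFOXA1, a rise of 1.97 ± 0.13 or 3.92-fold (adjusted p = 2.91e-07). In KC7F2 it measured 104, 131 and 107 RPKM, against 33.3, 43.6 and 49.3 in control, and rose by 1.44 ± 0.13 or 2.71-fold (adjusted p = 1.65e-05). Each of the 6 libraries with KC7F2 was above each of the other 12 in this series.

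FADS2, the first desaturase of long polyunsaturated fatty acids, also rose in both pairs. It reached 287, 260.1 and 224 RPKM in shFOXA1 + KC7F2, against 175, 161 and 169 in shFOXA1 (0.60 ± 0.13, adjusted p = 0.0163), and 89.2, 101 and 74.6 in KC7F2, against 42.6, 51.9 and 52.4 in control (0.84 ± 0.13, adjusted p = 0.00209). Neither pair overlapped, but the call on shFOXA1 was lost without shFOXA1 + KC7F2 1 (adjusted p = 0.0876) or 2 (0.0648) and without shFOXA1 2 (0.0668) or 3 (0.0548).

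The other fatty acid members were called in 1 background or in neither, and no member was called for a difference between the backgrounds. ELOVL6, which extends palmitate to stearate, rose on control by 0.77 ± 0.13 (adjusted p = 0.00377, 0.177 without the 3 libraries), and had a value of -0.23 ± 0.13 on shFOXA1. The test of that difference gave -1.01 ± 0.19 (adjusted p = 0.0542), just short of a call. ACACA, the carboxylase that commits acetyl-CoA to fatty acid synthesis, rose on shFOXA1 by 0.68 ± 0.17 (adjusted p = 0.0364) and had 0.22 ± 0.17 on control. FADS1, the second desaturase of the polyunsaturated route, rose on shFOXA1 by 0.59 ± 0.16 and had almost the same value, 0.60 ± 0.16, with no call on control (adjusted p = 0.0451 and 0.0618). FASN, the fatty acid synthase, had 0.58 ± 0.16 on shFOXA1 and 0.59 ± 0.16 on control, with adjusted p = 0.0509 and 0.0759. ACSS2, which makes acetyl-CoA from acetate, had 0.18 ± 0.097 and 0.32 ± 0.097, and ACLY, which makes it from citrate, -0.40 ± 0.11 and -0.21 ± 0.11, all without a call. ELOVL5, which elongates polyunsaturated fatty acids, was the 1 member that fell with KC7F2 on control, by 0.53 ± 0.13 (adjusted p = 0.0407). The ELOVL5, ACACA and FADS1 calls were the least steady of these, lost in 16, 8 and 13 of 28 other settings, with adjusted p up to 0.697, 0.113 and 0.162.

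Of the 17 sterol synthesis enzymes, 3 rose with KC7F2 on control and 2 on shFOXA1, none fell, and the median change was 0.38 on control and 0.25 on shFOXA1. LSS, which closes squalene epoxide into lanosterol, was the 1 enzyme called in both. It measured 9.90, 10.8 and 8.64 RPKM in shFOXA1 + KC7F2, against 5.42, 5.49 and 6.39 in shFOXA1 (0.71 ± 0.12, adjusted p = 0.00222), and 13.6, 13.5 and 11.6 in KC7F2, against 7.95, 7.81 and 6.24 in control (0.78 ± 0.12, adjusted p = 0.00157). The groups did not overlap in either pair. FDPS, which makes farnesyl diphosphate, and TM7SF2, a sterol reductase, rose on control by 0.52 ± 0.12 and 0.50 ± 0.11 (adjusted p = 0.0371 and 0.0183). CYP51A1, which removes a methyl group from lanosterol, rose on shFOXA1 by 0.38 ± 0.099 (adjusted p = 0.0411). These last 3 calls were lost in 15, 6 and 13 of 28 other settings, and the first 2 without the 3 libraries richer in short genes (adjusted p = 0.234 and 0.325). HMGCS1, the entry enzyme of the mevalonate route, measured 10.2, 12.2 and 12.3 RPKM in shFOXA1 + KC7F2, against 10.5, 11.6 and 10.6 in shFOXA1, and 16.6, 15.1 and 16.2 in KC7F2, against 17.3, 15.4 and 15.6 in control. Its values overlapped in both pairs, and its change was 0.074 ± 0.092 and -0.012 ± 0.092 with no call (95% intervals -0.13 to 0.27 and -0.21 to 0.19).

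Of the 5 tested LXR members, ABCG1 and MYLIP rose with KC7F2 on control and on shFOXA1, and the other 3 were not called in either. ABCG1, which exports cholesterol to lipoproteins, measured 4.70, 5.64 and 3.86 RPKM in shFOXA1 + KC7F2, against 1.51, 1.499 and 1.72 in shFOXA1, and rose by 1.32 ± 0.19 (adjusted p = 0.000395). It measured 4.50, 4.49 and 3.75 in KC7F2, against 1.27, 1.53 and 1.88 in control, and rose by 1.21 ± 0.19 (adjusted p = 0.00148). The pairs did not overlap. MYLIP, a ubiquitin ligase that marks lipoprotein receptors for destruction, measured 5.45, 5.01 and 4.83 RPKM in shFOXA1 + KC7F2, against 3.38, 3.52 and 2.90 in shFOXA1 (0.57 ± 0.10, adjusted p = 0.00337). It measured 6.25, 5.07 and 6.15 in KC7F2, against 3.32, 2.95 and 3.22 in control (0.78 ± 0.10, adjusted p = 0.000399). On control both calls were lost without the 3 libraries, at 1.18 for ABCG1 (adjusted p = 0.130) and 0.64 for MYLIP (adjusted p = 0.108). NR1H3, the LXR alpha gene, had 0.32 ± 0.15 and 0.15 ± 0.15, NR1H2, the LXR beta gene, 0.20 ± 0.13 and 0.37 ± 0.13, and LPCAT3, an LXR target that puts polyunsaturated chains into phospholipids, 0.31 ± 0.13 and 0.16 ± 0.13 on shFOXA1 and on control. ABCA1 was listed at 0.0725, 0.0711 and 0.0109 RPKM in shFOXA1 + KC7F2 and 0.136, 0.0936 and 0.0552 in shFOXA1, and at 0.102, 0.0771 and 0.118 in KC7F2 and 0.0503, 0.0493 and 0.0369 in control. It was at 0.0877, 0 and 0.102 in shFOXA1 + shHIF1A and 0.0395, 0.0250 and 0.0214 in shHIF1A. Over all 18 libraries it rested on an estimated 0 to 14 reads, too few for a comparison.

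The stretches before the start are shown for 7 of the 9 members that rose with KC7F2 in both backgrounds, because these genes moved together, and, chosen after its values had been seen, for HMGCS1, an SREBP target that had no call with KC7F2, for comparison. The RefSeq promoter table (GRCh38.p14) held 33 of the 37 members. Of the 9, SREBF2 and ABCG1 are named only. FADS2 and HMGCS1 each have a further entry, at another start, which is not shown. The FADS2 stretch lies inside the annotated gene, which begins at 61792980. The lines give the part of the 250 bases upstream that overlaps no annotated exon, on the gene's strand, from chr17:17837003-17837236 (minus strand) for SREBF1, chr10:100346983-100347123 (plus strand) for SCD, chr7:155297628-155297775 (plus) for INSIG1, chr5:111512591-111512785 (minus) for STARD4, chr21:46228825-46229024 (minus) for LSS, chr11:61816154-61816255 (plus) for FADS2, chr6:16128836-16129085 (plus) for MYLIP and chr5:43313513-43313662 (minus) for HMGCS1. Capitals mark CCAAT on either strand (ATTGG on the other), the box bound by the factor NF-Y, which is known to work beside SREBP.

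SREBF1: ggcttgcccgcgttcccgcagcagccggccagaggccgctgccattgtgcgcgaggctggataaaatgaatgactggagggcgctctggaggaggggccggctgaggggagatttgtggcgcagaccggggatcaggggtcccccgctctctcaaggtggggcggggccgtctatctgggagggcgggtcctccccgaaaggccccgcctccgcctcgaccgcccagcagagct
SCD: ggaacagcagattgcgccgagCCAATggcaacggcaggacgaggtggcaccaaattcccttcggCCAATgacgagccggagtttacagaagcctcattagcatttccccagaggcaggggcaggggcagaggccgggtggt
INSIG1: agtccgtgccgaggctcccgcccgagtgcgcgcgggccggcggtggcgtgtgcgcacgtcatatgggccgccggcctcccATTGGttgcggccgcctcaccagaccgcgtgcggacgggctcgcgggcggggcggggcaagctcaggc
STARD4: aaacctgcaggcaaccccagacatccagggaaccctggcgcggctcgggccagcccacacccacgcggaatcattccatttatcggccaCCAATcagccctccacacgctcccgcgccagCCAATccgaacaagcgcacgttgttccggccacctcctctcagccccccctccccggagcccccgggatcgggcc
LSS: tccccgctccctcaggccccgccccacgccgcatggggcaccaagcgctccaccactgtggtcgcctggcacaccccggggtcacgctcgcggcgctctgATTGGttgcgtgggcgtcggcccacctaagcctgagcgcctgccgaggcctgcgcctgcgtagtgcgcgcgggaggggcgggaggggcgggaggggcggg
FADS2: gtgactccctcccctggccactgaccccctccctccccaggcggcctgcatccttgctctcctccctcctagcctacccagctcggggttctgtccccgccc
MYLIP: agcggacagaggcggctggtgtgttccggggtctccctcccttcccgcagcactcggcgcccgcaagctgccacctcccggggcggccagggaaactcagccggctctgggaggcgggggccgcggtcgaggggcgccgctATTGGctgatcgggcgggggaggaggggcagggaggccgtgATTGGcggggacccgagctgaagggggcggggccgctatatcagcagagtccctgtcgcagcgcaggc
HMGCS1: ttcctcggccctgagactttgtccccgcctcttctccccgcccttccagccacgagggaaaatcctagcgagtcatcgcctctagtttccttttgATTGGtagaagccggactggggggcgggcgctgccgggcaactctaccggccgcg

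CCAAT stood on either strand of the 250 bases in 24 of 33 members (72.7%), against 42.1% of the 9254 tested genes with an entry. It was most frequent in sterol synthesis, in 13 of 15 members (86.7%), followed by 5 of 8 fatty acid members (62.5%), 3 of 5 SREBP control members and 3 of 5 LXR members (60% each). GGGCGG, the core of an Sp1 site, stood in 31 of 33 members (93.9%) and 74.3% of tested genes. ACGTG, the core of a hypoxia response element, stood in 9 of 33 members (27.3%) and 29.4% of tested genes. TGTTTNC, a short forkhead core that FOXA1 can bind, stood in 6 of 33 (18.2%) and 14.5%. TCACNCCAC, a sterol regulatory element, stood in 1 of 33 members, SREBF2 (3.03%), and 1.18% of tested genes, and its shorter core CACNCCAC, which every such element contains, in 7 of 33 (21.2%) and 6.31%. An exact form of the repeat that LXR and RXR bind, AGGTCA followed by itself after a gap of 4 bases, stood in none of the 33 and none of the tested genes. It stood in only 1 of all 16194 genes with an entry, so its absence cannot decide whether members have LXR sites. Apart from the sterol regulatory element and its core, no word contains another. SCD and STARD4 each show 2 CCAAT words in the same orientation in the stretch shown, MYLIP 2 in the opposite orientation and INSIG1 and LSS 1 each, while the SREBF1 and FADS2 stretches show none. HMGCS1, which had no call with KC7F2, shows 1 as well, so the word does not set apart the members that rose. A match is a description of the letters and not of binding.

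With the HIF1A shRNA, the SREBP control list split: 1 gene rose and 2 fell on control, and 3 rose and 1 fell on shFOXA1. Over all genes, 42% were called on control (25.9% higher, 16.1% lower) and 37.5% on shFOXA1 (24% higher, 13.5% lower). On control SREBF1 measured 47.5, 41.1 and 35.0 RPKM in shHIF1A, against 54.1, 55.2 and 44.9 in control, and fell by 0.32 ± 0.12 (adjusted p = 0.0406). Added to shFOXA1, the HIF1A shRNA brought it to 44.1, 35.5 and 37.5 RPKM, against 55.8, 55.8 and 56.3 in shFOXA1 alone, a fall of 0.52 ± 0.12 (adjusted p = 0.00270). The groups overlapped on control and not on shFOXA1, and the call on control was lost in 9 of 28 other settings (adjusted p up to 0.199, without shHIF1A 3). INSIG1 measured 9.73, 8.89 and 11.1 RPKM in shHIF1A, against 13.6, 12.4 and 13.8 in control, and fell by 0.41 ± 0.12 (adjusted p = 0.0120, 0.0623 without shHIF1A 2). On shFOXA1 its value was -0.17 ± 0.12 with no call.

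The other 3 genes of this list rose or were not called. SREBF2 measured 34.5, 29.3 and 34.7 RPKM in shFOXA1 + shHIF1A, against 24.2, 24.2 and 25.7 in shFOXA1, and rose by 0.40 ± 0.11 (adjusted p = 0.00982), a call lost under median-ratio scaling (0.0756) and quantile normalization (0.155). On control it had 0.26 ± 0.11 (adjusted p = 0.0666). SCAP measured 36.2, 36.1 and 32.8 RPKM in shFOXA1 + shHIF1A, against 26.2, 25.7 and 28.9 in shFOXA1, and 44.3, 41.7 and 36.3 in shHIF1A, against 33.4, 32.5 and 29.5 in control. It rose in both pairs, by 0.37 ± 0.093 and 0.35 ± 0.093 (adjusted p = 0.00466 and 0.00636), with no overlap. STARD4 measured 1.93, 2.02 and 1.77 RPKM in shFOXA1 + shHIF1A, against 1.28, 0.823 and 1.04 in shFOXA1, and rose by 0.64 ± 0.15 (adjusted p = 0.00339), while on control it had 0.065 ± 0.15 with no call.

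All 5 tested LXR members were called with shHIF1A on control, 4 higher and 1 lower, and 4 rose on shFOXA1. Of all genes, 42% were called on control and 37.5% on shFOXA1. MYLIP measured 6.60, 6.68 and 7.46 RPKM in shFOXA1 + shHIF1A, against 3.38, 3.52 and 2.90 in shFOXA1, and 8.11, 8.72 and 7.80 in shHIF1A, against 3.32, 2.95 and 3.22 in control. Neither pair overlapped, and the rises were 0.98 ± 0.10 and 1.25 ± 0.10 (adjusted p = 1.74e-06 and 1.33e-07). NR1H2 measured 52.4, 53.6 and 53.0 RPKM in shFOXA1 + shHIF1A, against 29.2, 27.6 and 28.7 in shFOXA1 (0.88 ± 0.13, adjusted p = 7.53e-05). It measured 52.1, 43.2 and 32.2 in shHIF1A, against 29.7, 25.6 and 22.8 in control (0.68 ± 0.13, adjusted p = 0.000700). The receptor genes went opposite ways on control: NR1H3 measured 4.84, 3.89 and 3.30 RPKM in shHIF1A, against 7.18, 6.41 and 4.94 in control, and fell by 0.57 ± 0.15 (adjusted p = 0.00624), and on shFOXA1 it had 0.14 ± 0.15 with no call.

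ABCG1 measured 3.18, 4.30 and 3.12 RPKM in shHIF1A, against 1.27, 1.53 and 1.88 in control, and rose by 0.97 ± 0.19 (adjusted p = 0.000564). In shFOXA1 + shHIF1A it measured 3.24, 1.71 and 2.60, against 1.51, 1.499 and 1.72 in shFOXA1. Those groups overlapped, and the rise of 0.51 ± 0.19 (adjusted p = 0.0416) was lost in 13 of 28 other settings and became 0.34 without shFOXA1 + shHIF1A 1 (adjusted p = 0.196). LPCAT3 measured 75.4, 61.6 and 69.4 RPKM in shFOXA1 + shHIF1A, against 45.0, 40.1 and 46.2 in shFOXA1, and 76.0, 83.9 and 67.4 in shHIF1A, against 49.7, 54.7 and 59.2 in control. Every shRNA library was above every library of its comparison group, and LPCAT3 rose by 0.64 ± 0.13 and 0.47 ± 0.13 (adjusted p = 0.000719 and 0.00657). Exons of EMG1 on the opposite strand cover 65.6% of the LPCAT3 exon length, so without a known strand setting its reads cannot be told from those of EMG1.

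Sterol enzymes were called in both directions with shHIF1A, as all genes were. On control 3 of 17 rose and 2 fell, against 42% of all genes called (25.9% higher, 16.1% lower). On shFOXA1 5 rose and 2 fell, against 37.5% (24% higher, 13.5% lower), so neither count is a result about the list. HMGCS1 had the largest rise of the enzymes on control, to 29.8, 33.3 and 29.2 RPKM in shHIF1A, against 17.3, 15.4 and 15.6 in control (0.91 ± 0.092, adjusted p = 1.01e-06). In shFOXA1 + shHIF1A it measured 19.0, 17.2 and 17.8, against 10.5, 11.6 and 10.6 in shFOXA1 (0.69 ± 0.092, adjusted p = 1.97e-05). Neither pair overlapped. CYP51A1 went the other way, to 10.5, 11.03 and 12.5 RPKM in shFOXA1 + shHIF1A, against 14.1, 15.99 and 15.9 in shFOXA1, and to 11.5, 13.0 and 11.5 in shHIF1A, against 20.1, 18.7 and 17.0 in control. It fell by 0.42 ± 0.099 and 0.61 ± 0.099 (adjusted p = 0.00319 and 0.000117), and MSMO1, the oxidase that acts on the next methyl groups, fell by 0.53 ± 0.15 and 0.68 ± 0.15 (adjusted p = 0.0117 and 0.00191). Annotated neighbours overlap 86.0% of the CYP51A1 exon length, so part of its reads may belong to them.

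LSS rose with shHIF1A as it did with KC7F2. It measured 9.06, 7.04 and 8.18 RPKM in shFOXA1 + shHIF1A, against 5.42, 5.49 and 6.39 in shFOXA1 (0.45 ± 0.12, adjusted p = 0.00752), and 13.2, 12.8 and 11.5 in shHIF1A, against 7.95, 7.81 and 6.24 in control (0.74 ± 0.12, adjusted p = 0.000137). MVK, the mevalonate kinase, measured 13.3, 13.8 and 16.5 RPKM in shFOXA1 + shHIF1A, against 7.504, 8.36 and 6.24 in shFOXA1, and rose by 0.94 ± 0.15 (adjusted p = 0.000106), with 0.37 ± 0.15 and no call on control. SC5D, a late sterol desaturase, measured 14.5, 14.2 and 13.0 RPKM in shFOXA1 + shHIF1A, against 9.76, 9.34 and 9.62 in shFOXA1, and rose by 0.52 ± 0.10 (adjusted p = 0.000834), with 0.092 ± 0.10 and no call on control. MVD, the decarboxylase that makes isopentenyl diphosphate, rose on shFOXA1 by 0.68 ± 0.21 (adjusted p = 0.0190), and DHCR7, which finishes cholesterol, rose on control by 0.73 ± 0.18 (adjusted p = 0.00419). The MVD call was lost without shFOXA1 1 (adjusted p = 0.0699) or 3 (0.0866) or shFOXA1 + shHIF1A 3 (0.0608), and the MSMO1 call on shFOXA1 without shFOXA1 + shHIF1A 2 (0.0681).

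On control the HIF1A shRNA raised 3 of 9 fatty acid members and lowered 1, near the share of all genes (25.9% higher, 16.1% lower). On shFOXA1 it raised 1 and lowered 5, against 24% higher and 13.5% lower. ELOVL5 fell in both pairs. It measured 108, 77.6 and 81.7 RPKM in shFOXA1 + shHIF1A, against 156, 137 and 157 in shFOXA1 (-0.76 ± 0.13, adjusted p = 0.000208), and 97.9, 112 and 97.5 in shHIF1A, against 149, 155 and 159.8 in control (-0.60 ± 0.13, adjusted p = 0.00136). ACSS2 rose in both, to 17.5, 17.3 and 17.1 RPKM in shFOXA1 + shHIF1A, against 14.3, 11.6 and 11.6 in shFOXA1, and to 18.3, 19.5 and 17.1 in shHIF1A, against 12.4, 14.0 and 11.96 in control. Its rises were 0.46 ± 0.097 and 0.50 ± 0.097 (adjusted p = 0.00149 and 0.000600), and none of these 4 pairs of groups overlapped.

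SCD, the strongest responder to KC7F2, fell when shHIF1A was added to shFOXA1, to 17.3, 21.2 and 19.9 RPKM, against 38.7, 33.4 and 32.7 in shFOXA1 (-0.83 ± 0.13, adjusted p = 0.000120). On control it measured 32.9, 36.3 and 34.5 in shHIF1A, against 33.3, 43.6 and 49.3 in control, a value of -0.26 ± 0.13 with no call and with overlap. ACLY fell on shFOXA1, to 59.8, 62.0 and 66.5 RPKM in shFOXA1 + shHIF1A, against 88.9, 81.2 and 89.3 in shFOXA1 (-0.46 ± 0.11, adjusted p = 0.00486), and had 0.084 ± 0.11 on control. FASN fell on shFOXA1 by 0.61 ± 0.16 (adjusted p = 0.00660) and had 0.14 ± 0.16 on control. FADS2 was the 1 member called in opposite directions, higher on control (0.81 ± 0.13, adjusted p = 0.000167) and lower on shFOXA1 (-0.64 ± 0.13, adjusted p = 0.00136). FADS1 rose on control by 0.43 ± 0.16 (adjusted p = 0.0335), with overlap of the groups and a value of 0.25 without control 1 (adjusted p = 0.181).

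**Figure D3:**
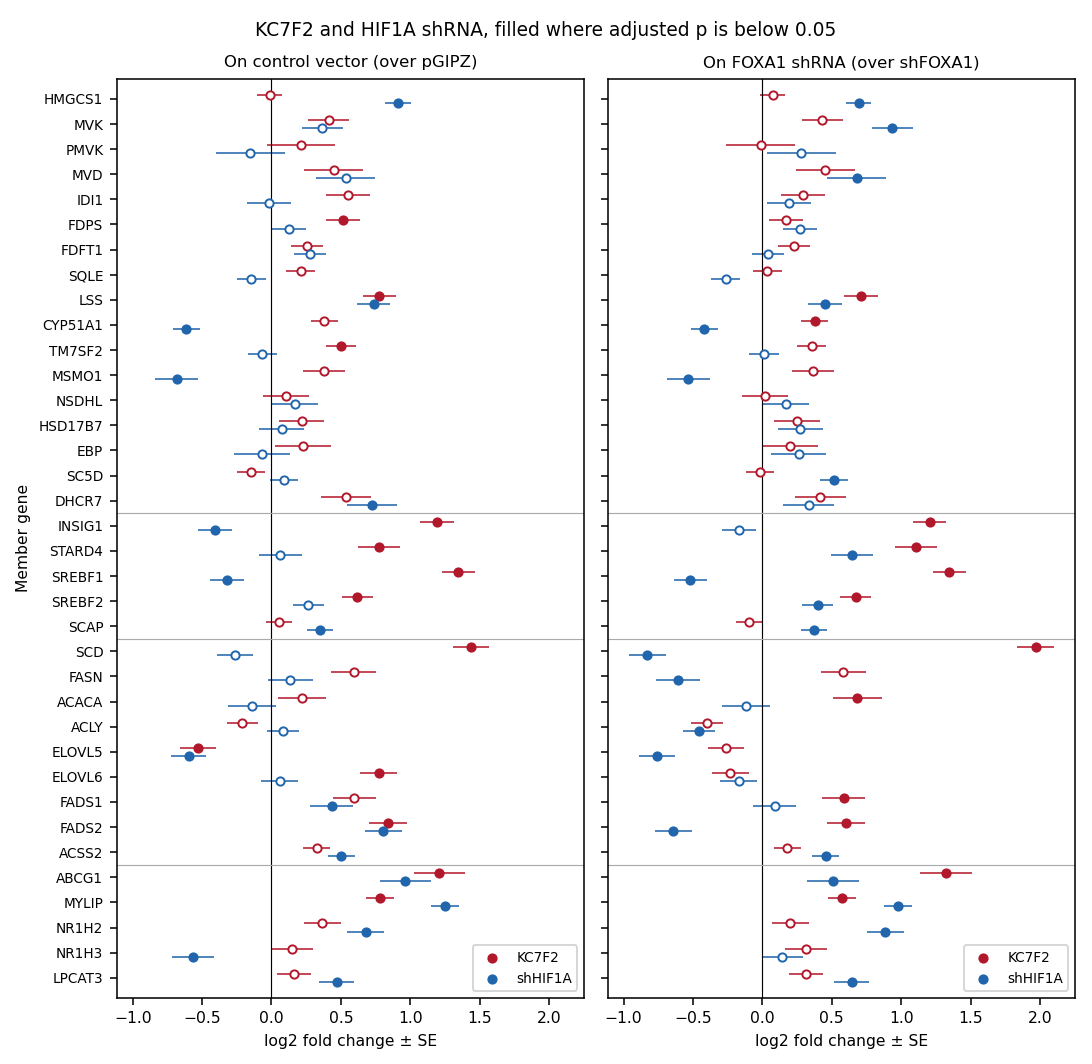
log2 fold change ± SE of each tested member with KC7F2 (red) and with shHIF1A (blue), over control on one side and over shFOXA1 on the other, filled where the adjusted p is below 0.05. The red and blue points part most at SCD, SREBF1 and INSIG1 and lie close together at LSS on control, and within a panel both colours share the same 3 comparison libraries.

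KC7F2 and shHIF1A share their comparison libraries, so the difference between them was tested directly, a comparison added after the values had been seen. On control 14 members were higher in KC7F2 than in shHIF1A and 4 were lower, against 42.6% of all genes called (19.6% higher, 23% lower). On shFOXA1 14 were higher in shFOXA1 + KC7F2 than in shFOXA1 + shHIF1A and 8 lower, against 36.6% (13.2% higher, 23.4% lower). Median-ratio scaling turned the second split over all genes to 2297 higher and 2326 lower, in place of 1700 and 3020, and that of the members to 17 and 6. The difference was widest for SCD, at 2.80 ± 0.13 on shFOXA1 and 1.70 ± 0.13 on control, followed by SREBF1 at 1.87 ± 0.12 and 1.67 ± 0.12 and INSIG1 at 1.37 ± 0.12 and 1.60 ± 0.12 (highest adjusted p of the 6, 2.41e-07). MSMO1 and CYP51A1 were also higher with the inhibitor, by 0.90 ± 0.15 and 0.80 ± 0.099 on shFOXA1 and 1.06 ± 0.15 and 0.99 ± 0.099 on control. HMGCS1 and MYLIP were lower with the inhibitor than with the shRNA, by 0.62 and 0.40 on shFOXA1 (values -0.62 and -0.40) and 0.93 and 0.47 on control (values -0.93 and -0.47). For LSS the difference was 0.26 ± 0.12 on shFOXA1 and 0.041 ± 0.12 on control with no call (95% intervals -0.0046 to 0.52 and -0.22 to 0.30). An inhibitor given for 24 h is set here against an shRNA given for 5 days, so the agent and its duration cannot be told apart.

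Knockdown of FOXA1 lowered sterol synthesis members in all 3 backgrounds, and the 3 comparisons share no library. Of the 17 enzymes, 11 fell on KC7F2, 4 on shHIF1A and 6 on control, and none rose, with medians of -0.48, -0.24 and -0.32, against -0.15, -0.060 and -0.089 for all genes. Over the 36 members, 2 rose and 15 fell on KC7F2, where 32.9% of all genes were called (8.88% higher, 24.1% lower), and none rose and 6 fell on shHIF1A, where 14.5% were called (5.27% higher, 9.25% lower). Without control 3, 2 members rose and 14 fell on control, and without KC7F2 1, 1 rose and 10 fell on KC7F2. HMGCS1, TM7SF2 and SQLE, the squalene epoxidase, fell in all 3 backgrounds. HMGCS1 measured 10.2, 12.2 and 12.3 RPKM in shFOXA1 + KC7F2, against 16.6, 15.1 and 16.2 in KC7F2, then 19.0, 17.2 and 17.8 in shFOXA1 + shHIF1A, against 29.8, 33.3 and 29.2 in shHIF1A, and 10.5, 11.6 and 10.6 in shFOXA1, against 17.3, 15.4 and 15.6 in control. Each pair was separate, and the falls were 0.45 ± 0.092, 0.76 ± 0.092 and 0.54 ± 0.092 (adjusted p = 0.00143, 3.36e-05 and 0.000377). TM7SF2 fell by 0.62 ± 0.11, 0.40 ± 0.11 and 0.48 ± 0.11, and SQLE by 0.50 ± 0.10, 0.44 ± 0.10 and 0.33 ± 0.10 (highest adjusted p of the 6, 0.0331). The SQLE call on control was lost in 8 of 28 other settings (adjusted p up to 0.158), and on shHIF1A without shHIF1A 2 (0.0534). The TM7SF2 call on shHIF1A was lost without shHIF1A 1 (0.0989) or shFOXA1 + shHIF1A 2 (0.108).

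SC5D, MVK and EBP, the isomerase of the late sterol route, fell on KC7F2 and on control but were not called on shHIF1A. SC5D measured 10.3, 9.75 and 8.45 RPKM in shFOXA1 + KC7F2, against 15.1, 12.7 and 14.1 in KC7F2, and 9.76, 9.34 and 9.62 in shFOXA1, against 17.4, 14.1 and 15.01 in control. It fell by 0.53 ± 0.10 and 0.66 ± 0.10 (adjusted p = 0.000898 and 0.000144), with no overlap, and had -0.24 ± 0.10 on shHIF1A. MVK measured 9.42, 9.57 and 11.3 RPKM in shFOXA1 + KC7F2, against 15.8, 14.1 and 16.5 in KC7F2, and 7.504, 8.36 and 6.24 in shFOXA1, against 14.8, 10.5 and 9.71 in control. MVK fell by 0.59 ± 0.15 and 0.62 ± 0.15 (adjusted p = 0.00574 and 0.00551) and had -0.045 ± 0.15 on shHIF1A. EBP fell by 0.81 ± 0.20 and 0.78 ± 0.20 (adjusted p = 0.00573 and 0.00876), on control with overlap and with adjusted p = 0.0503 without control 1. The tests of these differences between backgrounds, 0.42 ± 0.14 for SC5D, 0.57 ± 0.21 for MVK and 0.33 ± 0.28 for EBP, did not pass (adjusted p = 0.0916, 0.116 and 0.547).

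On KC7F2 a further 5 enzymes fell: FDPS by 0.63 ± 0.12, PMVK, the phosphomevalonate kinase, by 0.71 ± 0.25, IDI1, the isomerase of isopentenyl diphosphate, by 0.49 ± 0.16, LSS by 0.39 ± 0.12 and CYP51A1 by 0.27 ± 0.099 (highest adjusted p, 0.0429). LSS also fell on shHIF1A, to 9.06, 7.04 and 8.18 RPKM in shFOXA1 + shHIF1A, against 13.2, 12.8 and 11.5 in shHIF1A (-0.60 ± 0.12, adjusted p = 0.00279). The comparison on KC7F2 rests on the KC7F2 replicates 1 and 3. Without the 3 libraries richer in short genes 1 member rose and 6 fell, in place of 2 and 15, so most of its falls were lost there. Its split also moved with scaling. Median-ratio scaling put the median of all genes at 0.0039 in place of -0.15, gave 1875 genes higher and 1824 lower in place of 1145 and 3105, and left 6 members higher and 8 lower, HMGCS1, MVK, FDPS, SQLE, TM7SF2, EBP, SC5D and ELOVL6 among those that fell. Quantile normalization moved the split on shHIF1A, to 898 higher and 1023 lower in place of 680 and 1193, with 1 member higher and 6 lower. On control median-ratio scaling gave 1535 genes higher and 1477 lower in place of 1228 and 1883, with 2 members higher and 6 lower. DHCR7 had -0.16 ± 0.18, -0.43 ± 0.18 and -0.041 ± 0.18 and MSMO1 -0.17 ± 0.15, -0.0046 ± 0.15 and -0.16 ± 0.15, with no call in any background. FDFT1, the squalene synthase, and NSDHL and HSD17B7, which act on sterol intermediates, were called in none of the 9 planned comparisons, with HSD17B7 between -0.25 (shFOXA1 over control) and 0.27 (shHIF1A added to shFOXA1).

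**Figure D4:**
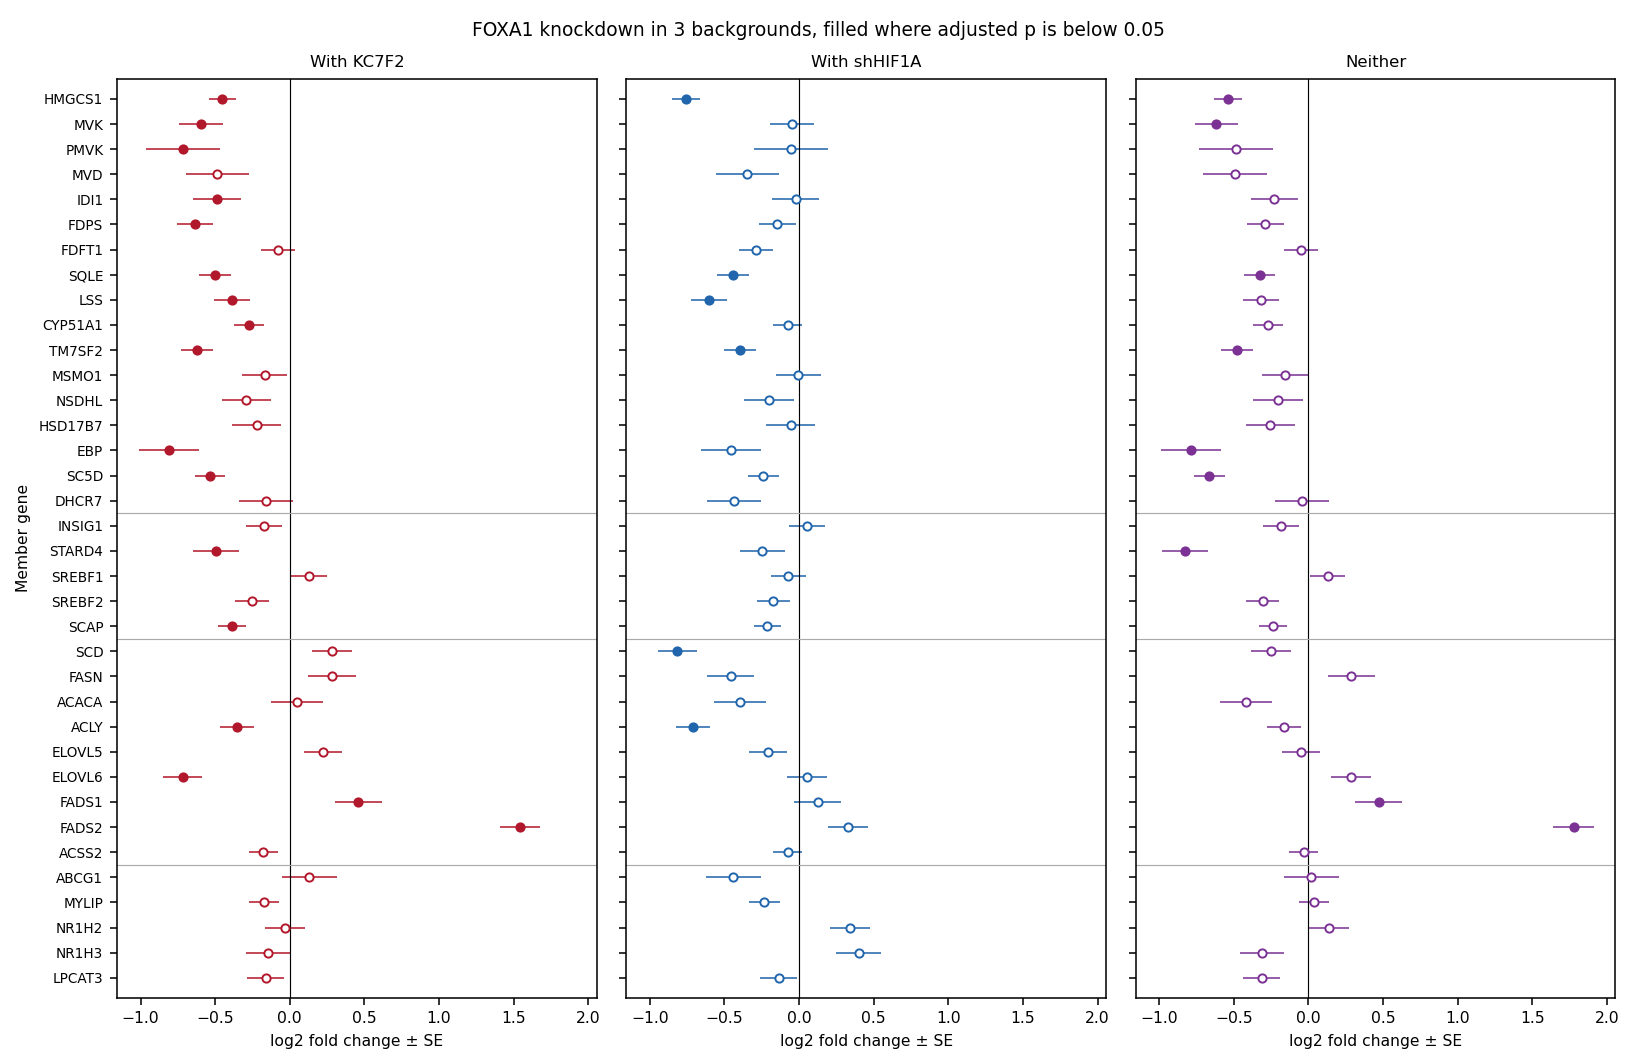
log2 fold change ± SE of each tested member with FOXA1 knockdown, on KC7F2, on shHIF1A and on neither, filled where the adjusted p is below 0.05. Most sterol synthesis points, the block that starts with HMGCS1, lie left of 0 in each panel, and FADS2 lies far right on KC7F2 and on neither but not on shHIF1A.

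Of the 5 SREBP control genes, FOXA1 knockdown lowered 2 on KC7F2, none on shHIF1A and 1 on control. It lowered 24.1%, 9.25% and 14.6% of all genes there, so these counts do not set the list apart. STARD4 measured 1.28, 0.823 and 1.04 RPKM in shFOXA1, against 2.45, 1.90 and 2.35 in control, and fell by 0.83 ± 0.15 (adjusted p = 0.000790). It fell by 0.49 ± 0.15 on KC7F2 (adjusted p = 0.0212), where the call was lost without KC7F2 1 (0.0716) or 3 (0.0764) or shFOXA1 + KC7F2 1 (0.121), and had -0.25 ± 0.15 on shHIF1A with no call. SCAP fell on KC7F2 by 0.39 ± 0.093 (adjusted p = 0.00474, 0.0639 with median-ratio scaling). SREBF1 had 0.13 ± 0.12, -0.071 ± 0.12 and 0.13 ± 0.12, INSIG1 -0.17 ± 0.12, 0.054 ± 0.12 and -0.18 ± 0.12, and SREBF2 -0.25 ± 0.11, -0.17 ± 0.11 and -0.31 ± 0.11, none called. The 5 tested LXR members were not called with FOXA1 knockdown in any background, from -0.44 for ABCG1 on shHIF1A to 0.40 for NR1H3 on shHIF1A. An unadjusted p under 0.05 (limma) was found for 1 on control, 4 on shHIF1A and none on KC7F2. Of all 12900 genes, 4647, 3544 and 5633 had such a p on control, shHIF1A and KC7F2. NR1H3 came nearest to a difference between backgrounds, at 0.71 ± 0.21 (adjusted p = 0.0513).

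FADS2 was the member that FOXA1 knockdown raised most, and the only one whose response differed by test between backgrounds. It measured 287, 260.1 and 224 RPKM in shFOXA1 + KC7F2, against 89.2, 101 and 74.6 in KC7F2 (1.54 ± 0.13, adjusted p = 3.74e-07). In shFOXA1 it measured 175, 161 and 169, against 42.6, 51.9 and 52.4 in control, a rise of 1.78 ± 0.13 or 3.43-fold (adjusted p = 5.88e-08). In shFOXA1 + shHIF1A it measured 112, 102 and 109, against 93.5, 94.2 and 71.0 in shHIF1A, a value of 0.33 ± 0.13 with no call (adjusted p = 0.120). The response on shHIF1A minus that on control was -1.45 ± 0.19 (adjusted p = 0.000143), in a comparison that called 7.61% of all genes (3.16% higher, 4.45% lower) and no other member, and the response on KC7F2 minus that on control was -0.24 ± 0.19 with no call. FOXA1 itself fell less in the shHIF1A background, as given above, and the part of this in the FADS2 difference was not tested. FADS2 lies on chromosome 11, 61792980 to 61867354 (hg38, plus strand), and its exons overlap those of FEN1 and FADS1 over 4.89% of their length.

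FADS1, the neighbour of FADS2, rose on KC7F2 by 0.46 ± 0.16 and on control by 0.47 ± 0.16 (adjusted p = 0.0324 and 0.0369) and had 0.12 ± 0.16 on shHIF1A. Both calls were lost without the 3 libraries, at 0.16 (adjusted p = 0.531) and 0.29 (adjusted p = 0.117), and that on control without control 1 alone, at 0.29 (adjusted p = 0.191). SCD fell on shHIF1A, to 17.3, 21.2 and 19.9 RPKM in shFOXA1 + shHIF1A, against 32.9, 36.3 and 34.5 in shHIF1A (-0.82 ± 0.13, adjusted p = 0.000493), and had 0.28 ± 0.13 on KC7F2 and -0.25 ± 0.13 on control. ACLY fell on KC7F2 by 0.36 ± 0.11 and on shHIF1A by 0.71 ± 0.11 (adjusted p = 0.0258 and 0.000502) and had -0.17 ± 0.11 on control. The fall of ACLY on KC7F2 was lost with either scaling (adjusted p = 0.278 and 0.893) and without KC7F2 2 (0.105) or shFOXA1 + KC7F2 3 (0.0979). ELOVL6 measured 5.22, 4.98 and 4.21 RPKM in shFOXA1 + KC7F2, against 8.20, 8.72 and 7.69 in KC7F2, and fell by 0.72 ± 0.13 (adjusted p = 0.000715), with 0.055 ± 0.13 on shHIF1A and 0.29 ± 0.13 on control. FASN had 0.28 ± 0.16, -0.46 ± 0.16 and 0.29 ± 0.16, and ELOVL5, ACACA and ACSS2 were likewise not called in any background. For the difference between KC7F2 and control no member was called by limma. That comparison called 0.0775% of all genes (0.0155% higher, 0.062% lower, or 2 and 8 genes, against 4 and 4 with median-ratio scaling). In it 2 of 36 members, ELOVL6 and SCD, had an unadjusted p under 0.05 (limma), near the share of all genes (872 of 12900).

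Other genes of the same pathways were set beside the members. For the counts in this and the following paragraphs on them, KC7F2 called 4.08% of all genes on shFOXA1 and 2.04% on control. The HIF1A shRNA called 37.5% on shFOXA1 and 42% on control. FOXA1 knockdown called 32.9% on KC7F2, 14.5% on shHIF1A and 24.1% on control. A count near its share is not a result about the list. Of 16 other sterol handling genes, all tested, KC7F2 raised 1 and lowered none on shFOXA1 and raised none and lowered 1 on control. The HIF1A shRNA raised 5 and lowered 4 on shFOXA1, and raised 3 and lowered 4 on control, and FOXA1 knockdown raised none and lowered 6 on KC7F2, raised 1 and lowered 4 on shHIF1A, and raised none and lowered 4 on control. LBR, a sterol reductase of the nuclear envelope, fell with shHIF1A by 0.50 ± 0.11 on shFOXA1 and 1.15 ± 0.11 on control (adjusted p = 0.00218 and 7.54e-07). SOAT1, which esterifies cholesterol for storage, fell with shFOXA1 by 0.86 ± 0.086 (adjusted p = 1.501e-06), and NPC1, which releases cholesterol from lysosomes, rose when shHIF1A was added to shFOXA1 by 1.04 ± 0.16 (adjusted p = 7.67e-05).

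Of 25 tested genes of fatty acid and glycerolipid synthesis outside the members, KC7F2 raised 4 and lowered 1 on shFOXA1 and raised 3 and lowered 2 on control. The HIF1A shRNA raised 2 and lowered 5 on shFOXA1 and raised 5 and lowered 5 on control. FOXA1 knockdown raised 3 and lowered 10 on KC7F2, none and 5 on shHIF1A, and 6 and 4 on control. ACSL3, which activates fatty acids in androgen-responsive cells, fell with shFOXA1 by 1.22 ± 0.082, and the elongase ELOVL7 by 1.73 ± 0.12 (adjusted p = 1.43e-08 for both). DGAT2, which completes triglycerides, rose with shFOXA1 by 0.91 ± 0.11 and fell by 1.21 ± 0.11 when shHIF1A was added (adjusted p = 1.75e-05 and 5.08e-07).

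Of 16 tested fatty acid oxidation genes KC7F2 raised none and lowered 4 on shFOXA1, with a list median of -0.30 beside 0.34 for the members, and raised none and lowered 1 on control. The HIF1A shRNA raised 7 and lowered 3 on shFOXA1 (median 0.29) and raised 6 and lowered 2 on control (median 0.19). FOXA1 knockdown raised 2 and lowered 7 on KC7F2, had no call on shHIF1A, and raised 3 and lowered 3 on control. On shHIF1A 2 of the 16 had an unadjusted p under 0.05 (limma), against 3544 of all 12900 genes. CPT1A, the gate for fatty acids into mitochondria, measured 25.8 ± 1.64 RPKM in shFOXA1 + KC7F2 and 60.1 ± 2.56 in shFOXA1 (SD, n = 3 each) and fell by 1.20 ± 0.082 (adjusted p = 2.91e-07). On control it fell by 0.83 ± 0.082 (adjusted p = 2.48e-05), whereas with shHIF1A it rose by 0.53 ± 0.082 on shFOXA1 and 0.39 ± 0.082 on control (adjusted p = 9.43e-05 and 0.00123). Against the direction of most called genes of the list, ACADM, the medium-chain acyl-CoA dehydrogenase, fell with shHIF1A by 2.11 ± 0.15 and 1.57 ± 0.15 (adjusted p = 2.49e-08 and 6.09e-07), and HADH, a later step of the same cycle, by 1.16 ± 0.11 and 0.63 ± 0.11 (adjusted p = 5.08e-07 and 0.000207).

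Of 8 tested partners and further targets of LXR, KC7F2 raised 1 on shFOXA1 and none on control and lowered none. On control 1 of the 8 had an unadjusted p under 0.05 (limma), near the share of all genes (1537 of 12900). The HIF1A shRNA raised 2 and lowered 2 on shFOXA1 and likewise on control, and FOXA1 knockdown raised 3 on KC7F2, 3 on shHIF1A and 3 on control and lowered 1, on control. SMPDL3A, a phosphodiesterase induced by LXR, rose by 1.59 ± 0.15 when shHIF1A was added to shFOXA1 (adjusted p = 7.32e-07) and had 0.049 ± 0.15 on control, and it was the 1 gene of the list that rose with KC7F2 on shFOXA1, by 0.62 ± 0.15 (adjusted p = 0.0330). RXRA, the obligate partner of LXR, rose with shFOXA1 by 0.67 ± 0.10 and fell by 0.49 ± 0.10 when shHIF1A was added (adjusted p = 0.000111 and 0.00101).

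Among the members themselves, levels in control cells ran over a wide range on the RPKM scale, which is per length. FASN, ELOVL5 and TM7SF2 were highest, at 166 ± 32.3, 155 ± 5.27 and 138 ± 9.51 RPKM, and the FASN range overlapped those of the other two (SD, n = 3 each). ABCG1 and STARD4 were the lowest of the tested members, at 1.56 ± 0.308 and 2.23 ± 0.289 RPKM, above ABCA1. In shFOXA1 + KC7F2 FASN was highest at 304 ± 48.1 RPKM, followed by FADS2 at 257 ± 31.3, SREBF1 at 143 ± 11.1 and SCD at 138 ± 7.71, and the ranges of FASN and FADS2 overlapped, as did those of SREBF1 and SCD.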

How the data were processed

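RNA from 18 LNCaP libraries was sequenced and the authors deposited 1 table of RPKM per gene and library, which is the only unit used. Per the submitters' processing notes, the aligner was STAR and the genome build hg38. For the counting program, gene annotation and strand setting no entry was given in the sources used here. Of 26475 deposited lines, 32 held no value.

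RPKM are not counts, so no count model was run. Genes with at least 1 RPKM in 3 libraries (12900) were fitted as log2(RPKM + 0.5) with limma 3.58.1 (R 4.3.3), as 6 group means with 12 residual degrees of freedom, a trended prior and Benjamini-Hochberg adjustment within each of 9 contrasts. A further 2 contrasts, KC7F2 against shHIF1A on each FOXA1 background, were added after the data had been seen. Tables and promoters were handled in Python 3.11.15 with pandas 2.3.3, scipy 1.17.1 and numpy 2.4.6, figures were drawn with matplotlib 3.10.9, and the fit was tested on simulated data. Intervals of differences are 95% intervals from limma's estimate and SE. They use the 12 residual degrees of freedom and not the larger number behind limma's p-values, so they are slightly wider.

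Depth was recovered from 2348 genes of at most 200 nucleotides, using the lowest of their nonzero values, 76 to 192 per library. It was set where the share of these within 2% of a whole number of reads was near its highest. That share was 80.1 to 89.1% per library.

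The members and the lists of other pathway genes were chosen with earlier results of these data known. In each role list, the 5 members with the smallest adjusted p in any of the 9 planned contrasts are given by library, and ABCA1 and ELOVL6 besides, chosen after their values had been seen. From each other list the 3 called genes with the smallest adjusted p in those contrasts are named, except 1 that is not reported here. Alternatives were another pseudocount, filter or scaling, robust or smaller fits, a replicate block, leaving out each library and leaving out the 3 libraries that an earlier look at these data had found to carry more signal in short genes.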

Additional observations from a re-analysis of the deposited data

Results flagged for a closer look

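FADS2, the first desaturase of the polyunsaturated fatty acid route, was picked out because its response to FOXA1 knockdown differed by test between cells with and without the HIF1A shRNA. The response was 0.33 with no call on shHIF1A (adjusted p = 0.120) and 1.78 on control on the log2 scale, and the difference, on shHIF1A minus on control, was -1.45 ± 0.19 (limma, Benjamini-Hochberg adjusted p = 0.000143). Each shFOXA1 + shHIF1A library was above each shHIF1A library, and each shFOXA1 library above each control library. The call held in all 28 other settings, with adjusted p up to 0.000819.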

How the results depend on the processing

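Over 36 members and 9 contrasts, 96 values were called, of which 51 kept their call in all 28 other settings and 45 lost it in at least 1, and 53 of the 228 uncalled values gained a call in at least 1. The value that reversed was FDFT1 with FOXA1 knockdown on KC7F2, which was -0.081 ± 0.11 with no call and 0.24 with a call under quantile normalization (adjusted p = 0.0154). With only the groups compared in the fit, the members called fell to 5 from 9 for shFOXA1 over control and to 2 from 13 for KC7F2 over control. Such a fit estimates the spread from fewer samples, but why these counts fell was not tested. Without the 3 libraries richer in short genes they fell to 6 from 13 for KC7F2 over control and to 7 from 17 for FOXA1 knockdown on KC7F2. For FADS2 and the other members, the difference of FOXA1 knockdown between shHIF1A and control was called in 1 member, in 4 with median-ratio scaling, in 2 with quantile normalization and in 4 with the replicate block (FADS2, FASN, ACLY and NR1H3). The difference between KC7F2 and control was called in 0 members by limma, and in 1, ELOVL6, with a pseudocount of 1 and with quantile normalization.

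Leaving out 1 library gave 7 to 16 called members for shFOXA1 over control (16 without control 3), 11 to 19 for FOXA1 knockdown on KC7F2 (11 without KC7F2 1), 1 to 4 for its difference between shHIF1A and control (4 without control 3, 3 without control 2, shHIF1A 3 or KC7F2 2, 2 without shHIF1A 1, KC7F2 1 or shFOXA1 + KC7F2 3) and 0 to 1 for that between KC7F2 and control (1 without shFOXA1 2). It gave 9 to 17 for KC7F2 over control, 8 to 15 for KC7F2 on shFOXA1, 14 to 19 for shHIF1A over control, 19 to 23 for shHIF1A on shFOXA1 and 5 to 8 for FOXA1 knockdown on shHIF1A. Where not said, the cause was not tested. Replicate numbers showed no pairing common to the groups: residuals of same-numbered libraries correlated at a median of -0.0082 (-0.21 to 0.25 over 45 pairs, 9 above 0.1). Pairing between some of the groups is not excluded by this. Apart from the difference between shHIF1A and control given above, a fit with the replicate block moved no count of called members by more than 1.5 times. Depth of about 3280000 to 12020000 reads limits low genes such as ABCA1.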
